A study of Homo sapiens with 54 samples.

Results

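TSC22D3, PER1, KLF9, DUSP1, ERRFI1, SGK1 and HSD11B2 are 7 early genes of the steroid hormone response, taken by name from the 20037 protein-coding genes of chromosomes 1 to 22, X and Y in the RefSeq table of GRCh38.p14. The peaks described are those within 50 kb of each gene span in 16 peak lists from T47D, an established human breast carcinoma line labelled positive for estrogen receptor and progesterone receptor (PR). Cells grown in medium with fetal bovine serum and insulin were given ethanol vehicle or R5020, a synthetic progestin, for 1 h, at a dose not given in the sources used here. Chromatin immunoprecipitation and sequencing (ChIP-seq) targeted PR, histone H3 acetylated at lysine 27 (H3K27Ac), Maf1, Brf1 and 4 subunits of RNA polymerase III, namely POLR3A, POLR3G, POLR3C and POLR3GL. Each of the 16 groups of antibody and treatment had 3 ChIP libraries of this single cell line, and each group has 1 peak list. No value below therefore has a replicate error, and no test of a treatment difference was possible.

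PR is a nuclear receptor that binds DNA once it holds a progestin. It recognises much the same DNA element as the glucocorticoid, mineralocorticoid and androgen receptors, and several of the genes described here are textbook targets of that whole receptor class. H3K27Ac marks active promoters and enhancers. RNA polymerase III makes tRNAs and other small RNAs, Brf1 recruits it to tRNA genes, and Maf1 restrains it.

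The genes have different products. TSC22D3 encodes GILZ, a leucine zipper protein that dampens inflammatory transcription. PER1 is a repressor of the circadian clock, and KLF9 is a zinc-finger transcription factor. DUSP1 is a phosphatase that inactivates MAP kinases, and ERRFI1 (also called MIG6) inhibits the EGF receptor. SGK1 is a kinase that controls ion transport, and HSD11B2 oxidises cortisol to inactive cortisone.

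The lists differ greatly in length, and this bears on each count. The PR list held 6663 peaks with vehicle and 173129 with R5020, the Maf1 lists held 3049 and 22683, and the H3K27Ac lists held 88870 and 112543. The lists hold no read counts, so the depth is unknown. Of the libraries titled R5020, 4 carry a treatment tag of ethanol (replicates 1 and 2 of POLR3C, and replicate 1 of both POLR3G and POLR3GL). They were grouped by title, and what is said of R5020 for these 3 subunits holds only if the titles are right. As a check of cell identity, H3K27Ac peaks lay over 9 of 9 luminal epithelial marker genes in both treatments, with a median highest fold of 18.8 with vehicle and 17.7 with R5020. The lowest luminal values were those of ELF3, 12.7 and 8.52. Of the basal markers 2 of 4 had a peak in both treatments, TP63 with highest folds of 10.5 and 12.3 and KRT17 with 4.41 and 3.89, and KRT5 and KRT14 had none. Fibroblast markers had a peak in 3 of 4 genes with vehicle and 2 of 4 with R5020. COL1A1 had highest folds of 10.9 and 13.5, within the range of the luminal genes with R5020, PDGFRB had 4.78 and 4.04, COL1A2 had 3.40 with vehicle alone, and DCN had no peak. The part of other cell types in the results was not tested.

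PR peaks near the 7 genes numbered 7 with vehicle and 142 with R5020. The vehicle peaks lay near PER1 (3), KLF9 (2), DUSP1 (1) and HSD11B2 (1), and near TSC22D3, SGK1 and ERRFI1 there was none. With R5020 there were 31 peaks near TSC22D3, 26 near PER1, 25 near HSD11B2, 23 near ERRFI1, 16 near DUSP1, 11 near KLF9 and 10 near SGK1. Every one of the 7 genes thus had more PR peaks in the R5020 list. That list is longer throughout, and the 7 genes held 0.105% of the vehicle list and 0.0820% of the R5020 list. When both PR lists were reduced to their 6663 peaks of highest -log10 q, the count was 7 with vehicle and 5 with R5020, so the direction turned. This cut kept the whole vehicle list, down to a -log10 q of 1.30, but dropped an R5020 peak of 272 at ERRFI1. It sets the totals of both lists equal, so it cannot show whether the number of PR sites rose. The 5 peaks that stayed were 4 near HSD11B2 and 1 near KLF9.

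**Figure D1:**
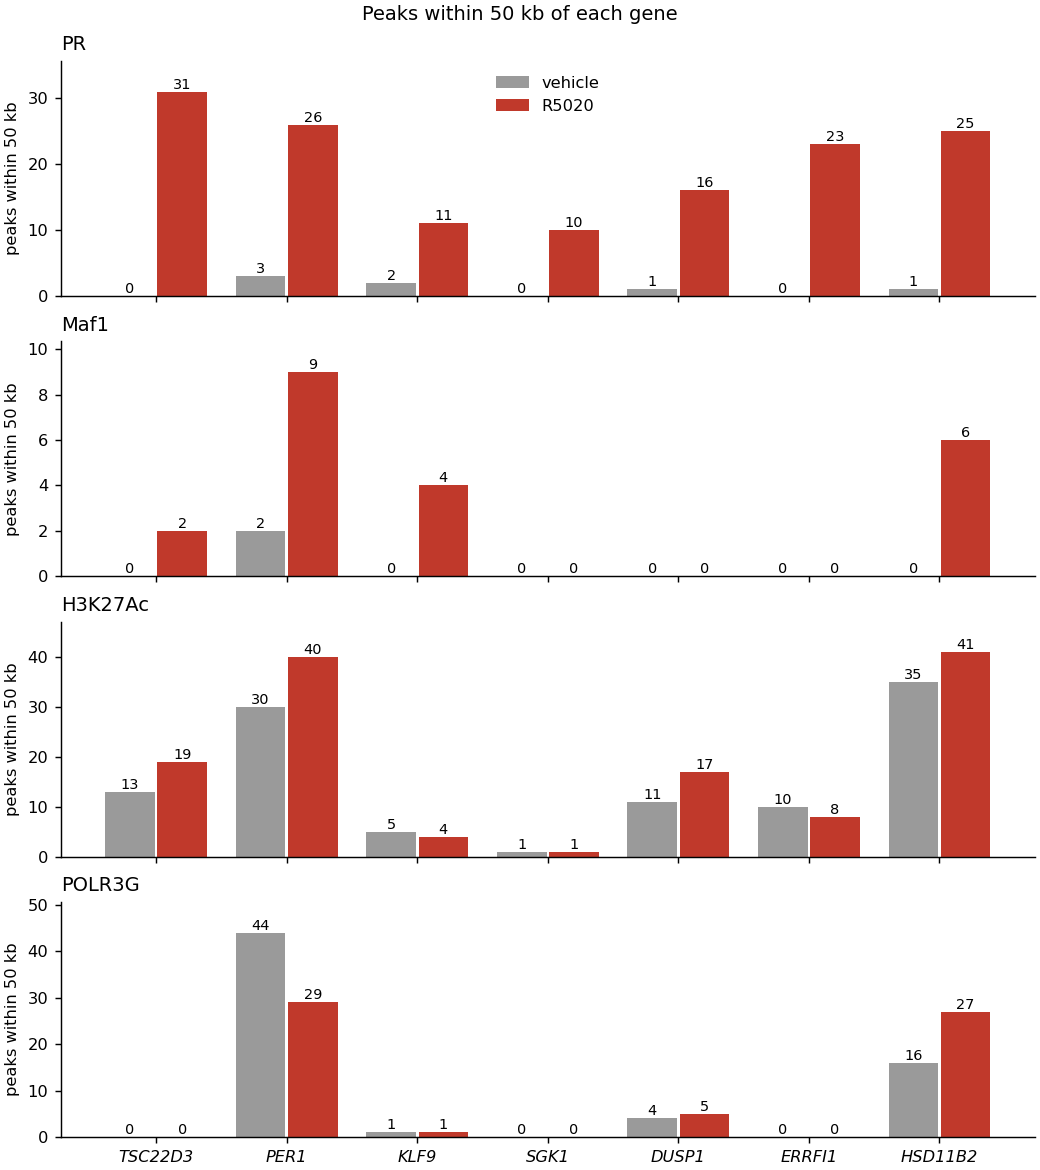
Number of peaks within 50 kb of each gene (y axis, a separate scale per panel) in the PR, Maf1, H3K27Ac and POLR3G lists with vehicle (grey) and R5020 (red), with no replicate error because each bar is 1 list. PR bars are taller with R5020 at each gene, from 10 at SGK1 to 31 at TSC22D3, and Maf1 bars are absent at SGK1, DUSP1 and ERRFI1.

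Over all coding genes, 38.1% had at least 1 PR peak within 50 kb with vehicle and 96.9% with R5020. The 4 of 7 genes with a vehicle peak and the 7 of 7 with an R5020 peak are to be read against those shares. The 3 genes with a PR peak in the R5020 list alone (TSC22D3, SGK1 and ERRFI1) compare with 58.8% of all coding genes. A longer gene has a longer window, so density is the fairer scale. PER1 and HSD11B2 both had 23.2 R5020 PR peaks per 100 kb, ERRFI1 20.1, TSC22D3 19.0, DUSP1 15.5, KLF9 8.46 and SGK1 4.02. The median over the 7 genes was 19.0 and over all coding genes 8.38 per 100 kb. In the ranking of all coding genes by this density, PER1 and HSD11B2 stood at percentile 97.4, KLF9 at 50.5 and SGK1 at 20.3. The 7 genes therefore spanned from a dense to a sparse setting, and SGK1 had fewer peaks per length than most genes.

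Peak strength was read from the fold, the authors' own summit enrichment over background, and from its percentile within the same list. Folds of 2 lists are not on a shared scale, so those of vehicle and R5020 are given side by side. The 142 R5020 PR peaks had folds of 2.56 to 53.1 with a median of 7.38, and their median percentile was 61.0. Of these, 21 were at or above percentile 90. All genes except SGK1 had at least 1 such peak, 6 of 7 genes against 59.7% of all coding genes. The number of strong peaks was 7 at HSD11B2, 6 at TSC22D3, 3 at KLF9, 2 at PER1, 2 at ERRFI1 and 1 at DUSP1. Both of those counted for PER1 lay by tRNA genes, with summits 32.7 and 35.5 kb from its start. By position, 103 of 142 lay outside the gene spans and 13 had a summit within 1 kb of an annotated start (for HSD11B2, of the lower end of its span). With 50 kb added on each side, most of the length searched also lay outside the spans. The count outside therefore does not show a preference for distal sites. The rule's limit of 50 kb fell where peaks continue: 14 of the 142 lay 40 to 50 kb from a span, and 13 more lay 50 to 60 kb away. The outermost peaks inside the limit had folds of 4.95 (DUSP1) to 39.2 (KLF9), and the first beyond it folds of 3.36 (TSC22D3) to 20.7 (PER1).

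**Figure D2:**
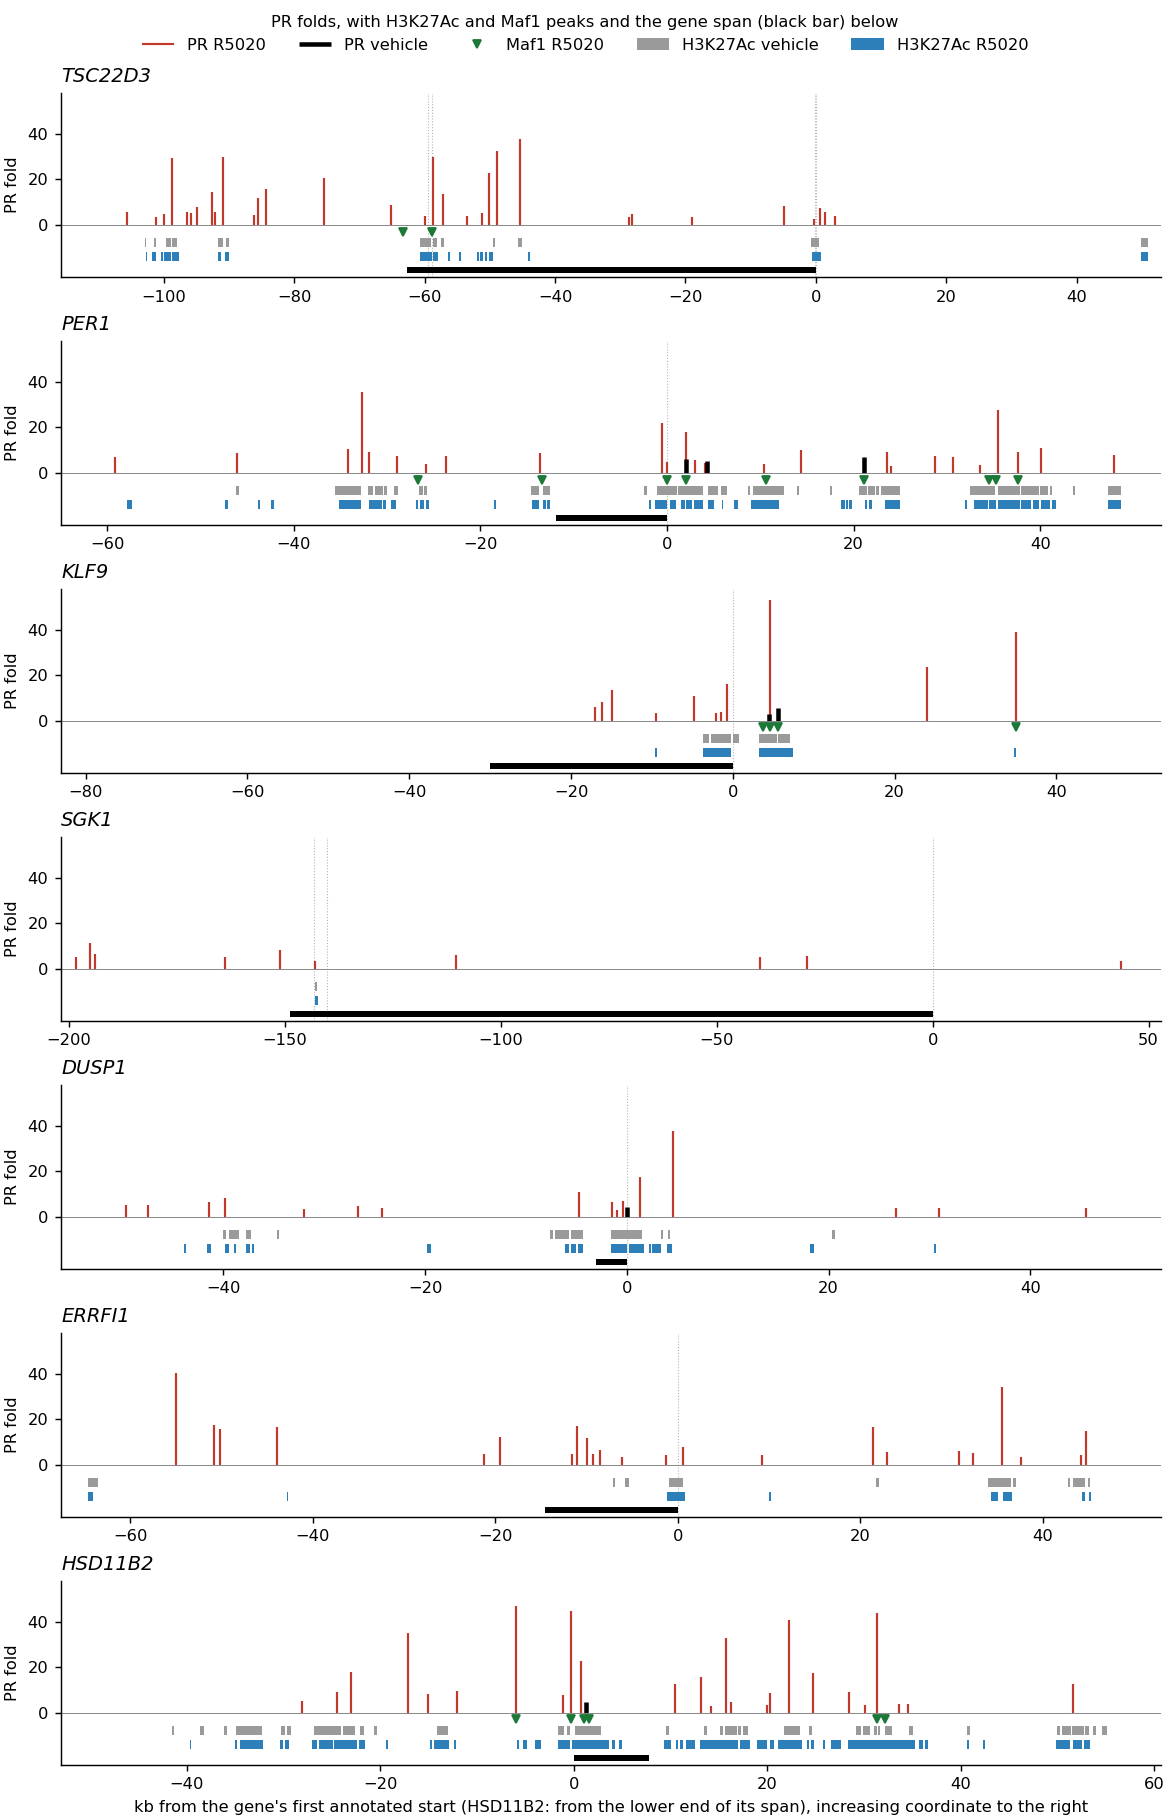
PR folds (y axis) against distance in kb from the first annotated start (x axis, lower end of the span for HSD11B2), with R5020 in red and vehicle in black; below each axis are Maf1 peaks with R5020 (green), H3K27Ac peaks with vehicle (grey) and R5020 (blue) and the gene span, and dotted lines mark starts. The tallest line is the fold of 53.1 at KLF9, and SGK1 has no fold above 11.2.

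Start sites came from the RefSeq promoter table, which matched 6 of the 7 genes with 11 starts. HSD11B2 had no entry there. All 6 genes lie on the minus strand, so upstream means a higher coordinate. A start was counted as occupied when a peak overlapped the 300 bases from 250 before to 50 after it. With vehicle, PR occupied a start of DUSP1 alone among the 6 (11.5% of 15843 genes with an entry). With R5020 it occupied starts of TSC22D3, PER1, SGK1 and DUSP1, 4 of 6 genes against 48.3% of all. The KLF9 and ERRFI1 starts were free of PR peaks, and their nearest summits lay 734 bp downstream (KLF9) and 619 bp upstream (ERRFI1).

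The 250 bases before these 4 occupied starts are printed because R5020 PR peaks overlap them. Capitals mark matches on either strand to the TATA-box letters TATAAA, the CCAAT box, the E-box CACGTG, the cAMP response element TGACGTCA or the receptor hexamer TGTTCT. The sequences are from RefSeq (GRCh38.p14), 5′ to 3′ on the minus strand, and each ends at the base before the start.
The third TSC22D3 start, chrX:107717063-107717312: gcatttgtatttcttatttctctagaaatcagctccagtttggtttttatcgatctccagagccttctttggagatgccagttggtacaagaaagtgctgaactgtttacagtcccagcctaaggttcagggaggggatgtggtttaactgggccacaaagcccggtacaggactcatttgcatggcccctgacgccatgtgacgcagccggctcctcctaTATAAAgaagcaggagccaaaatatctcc
PER1, chr17:8152405-8152654: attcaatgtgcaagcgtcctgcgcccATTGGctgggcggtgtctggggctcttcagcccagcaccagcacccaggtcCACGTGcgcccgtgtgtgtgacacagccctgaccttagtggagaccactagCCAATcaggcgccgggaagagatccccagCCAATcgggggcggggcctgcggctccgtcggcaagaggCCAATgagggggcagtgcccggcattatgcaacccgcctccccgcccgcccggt
The third SGK1 start, chr6:134174867-134175116: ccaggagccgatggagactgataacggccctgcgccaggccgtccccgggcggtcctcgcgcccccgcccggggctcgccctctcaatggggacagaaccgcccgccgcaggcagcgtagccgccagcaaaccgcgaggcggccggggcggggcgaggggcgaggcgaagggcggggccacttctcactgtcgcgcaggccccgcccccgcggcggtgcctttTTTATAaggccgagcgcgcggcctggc
DUSP1, chr5:172771196-172771445: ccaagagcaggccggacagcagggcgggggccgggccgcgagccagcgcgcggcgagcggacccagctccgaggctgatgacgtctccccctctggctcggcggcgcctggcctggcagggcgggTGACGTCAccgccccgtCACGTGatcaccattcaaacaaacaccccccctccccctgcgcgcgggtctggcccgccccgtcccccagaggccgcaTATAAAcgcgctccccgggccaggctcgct

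TATAAA was found 29 bases before the third TSC22D3 start, 27 before the third SGK1 start and 30 before the DUSP1 start, each counted to the first base of the match. It occurred in 5 of the 11 windows of the 6 genes and in 10.7% of all 35116 windows. PER1 had no TATAAA but 4 CCAAT matches (in 3 of 11 windows; in 32.0% of all) and an E-box, the element that clock activators bind. DUSP1 held an E-box 108 bases and a cAMP response element 125 bases before its start. E-boxes occurred in 6.34% of all windows and the cAMP element in 1.65%. The receptor hexamer was in 0 of the 11 windows and in 12.4% of all. The full palindrome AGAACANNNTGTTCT was in 0 of the 11 and in 0.00285% of all. These letters are matches only and were chosen with the peaks known. Of the R5020 PR peaks over the printed windows, only that of TSC22D3 had its summit inside, 130 bp before the start. The SGK1 summit lay 277 bp before its start, and those of PER1 and DUSP1 lay 3 and 428 bp after theirs. The windows therefore do not show whether the receptor element is present at most of these summits.

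At TSC22D3 (chrX:107713221-107775988) the R5020 PR peaks gathered beyond the gene end and around the third start, which lies 58926 bp from the first. No vehicle PR peak lay in the window. At the third start a peak at chrX:107716948-107717614 had a fold of 29.9 (percentile 94.2), with its summit 130 bp upstream, and it overlapped a Maf1 peak of fold 3.16. The other R5020 Maf1 peak of the window, of fold 4.93 and the higher -log10 q (8.47), lay just beyond the gene end at chrX:107712601-107712983, with no PR peak over it. Further upstream of that start, the larger peaks had folds of 13.6, 22.6, 32.3 and 37.7. The last of these, at chrX:107730383-107730949, had the highest -log10 q of the window (249) and a summit 13.6 kb upstream. Around the first start the PR folds were lower, 2.56 for the peak with its summit 90 bp downstream and 7.29 for one 593 bp upstream. The 6 strong PR peaks of this gene thus sat at the third start, in the intragenic stretch upstream of it, or beyond the gene end, at 27799 and 35721 bp from it.

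H3K27Ac near TSC22D3 covered 8313 bp in 13 peaks with vehicle and 11209 bp in 19 peaks with R5020, with mean folds of 4.81 and 5.13. The vehicle peak of highest -log10 q (19.4) lay beyond the gene end at chrX:107676288-107677015, with a fold of 7.70. At the third start, H3K27Ac lay on both sides of the PR summit in both treatments. The flanking peak downstream of the start had a fold of 7.47 with vehicle and 9.73 with R5020, and the upstream one 4.76 and 6.49. Under the PR peaks of folds 13.6, 32.3 and 37.7, the vehicle list held H3K27Ac peaks of folds 3.85, 3.17 and 3.40 and the R5020 list held none that overlapped. Between them, the peak of fold 22.6 overlapped H3K27Ac with R5020 alone.

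PER1 (chr17:8140472-8152404) had PR peaks in both lists. The vehicle peaks had folds of 6.24 at 2.04 kb upstream of the start, 5.13 at 4.26 kb and 6.95 at 21.1 kb, the last over TMEM107 and SNORD118. The R5020 peaks at the same places had folds of 17.9, 4.49 and 6.38. At the same place as the last, Maf1 had its peaks of highest -log10 q near PER1 in both lists, with folds of 6.46 with vehicle and 8.24 with R5020. A further R5020 peak at chr17:8151763-8152178, within the gene 491 bp downstream of the start, had a fold of 21.7. The peak on the start itself, chr17:8152299-8152615, had a fold of 4.68 (percentile 36.1) and overlapped a Maf1 peak of fold 2.87. The PR peak of highest -log10 q in the window (249) was not at PER1 but over a tRNA gene 32.7 kb downstream of its start, with a fold of 35.5.

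KLF9 (chr9:70384604-70414657) had few PR peaks but the highest fold of all 142. The peak at chr9:70418169-70421824 was 3656 bp wide with a fold of 53.1 (percentile 99.6) and a summit 4.61 kb upstream of the start, within the divergent transcript KLF9-DT. It contained both vehicle PR peaks, whose folds were 2.91 and 5.69. Maf1 had 3 peaks inside it with R5020, of folds 3.95, 11.7 and 5.74, and none with vehicle. H3K27Ac overlapped it in both treatments, as peaks of folds 11.1 and 10.2 with vehicle and 1 peak of 4198 bp and fold 13.5 with R5020. This upstream element thus carried all 3 marks in the R5020 list. A second distal peak 35.0 kb upstream had a PR fold of 39.2, a Maf1 fold of 4.34 and an H3K27Ac fold of 2.99 with R5020, and no peak of any of these with vehicle. Over the KLF9 start, the vehicle H3K27Ac peak at chr9:70414653-70415413 (fold 3.85) had no overlapping R5020 peak. The larger peak just inside the gene had a fold of 12.0 with vehicle and 14.7 with R5020.

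DUSP1 (chr5:172768096-172771195) is the shortest of the genes and had its vehicle PR peak on the start, at chr5:172771105-172771542 with a fold of 4.04. The R5020 peak there, chr5:172770570-172771350, had a fold of 6.67 and its summit 428 bp downstream. The strongest R5020 peak lay 4.61 kb upstream, at chr5:172775519-172776050, with a fold of 37.6 (percentile 97.0), and a peak 1.33 kb upstream had a fold of 17.4. The H3K27Ac peak over the start had a fold of 20.3 (percentile 98.9) and 3039 bp with vehicle. With R5020 the same stretch held 2 peaks of folds 12.9 and 12.5, and the gap between them lay within the vehicle PR peak. POLR3G also had a peak over this start, of fold 4.13 (percentile 95.8) with vehicle and 4.67 (98.7) with R5020. No other polymerase III antibody and no Maf1 peak lay in the window. DUSP1 thus combined the only start with a PR peak in both lists with a stronger upstream PR peak in the R5020 list alone.

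ERRFI1 (chr1:8011727-8026309) had 23 R5020 PR peaks and none with vehicle, and no Maf1 or polymerase III peak in either treatment. Its peaks of highest fold were far from the start. One of fold 40.4 at chr1:7970981-7971605 lay within the neighbouring gene PARK7, 55.0 kb from the ERRFI1 start. Another of fold 34.2 at chr1:8061234-8062055 lay 35.5 kb upstream in the divergent transcript ERRFI1-DT. The peak nearest the start had a fold of 7.69. H3K27Ac was found at 4 of the 23 PR peaks in the vehicle list and at 2 in the R5020 list, while 19 had it in neither. Over the start, the H3K27Ac fold was 9.28 with vehicle and 16.0 with R5020. The vehicle peak of highest -log10 q (30.9) lay elsewhere, over PARK7 at chr1:7961653-7962731, with a fold of 10.2 and no PR peak over it, while with R5020 it was the peak over the start.

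SGK1 (chr6:134169256-134318112) has the longest span, 148857 bp, and the other starts lie 140251 and 143246 bp from the first. There is no other coding gene in its window. Its 10 R5020 PR peaks had folds of 3.55 to 11.2, none at or above percentile 90. The peak of highest -log10 q (43.0) lay at chr6:134122698-134123108, beyond the gene end, with a fold of 11.2. The peak at the third start, chr6:134174855-134175209, had a fold of 3.55 (percentile 14.2), the lowest of the 10 and shared with the outermost upstream peak. It was the only one with H3K27Ac: the window's single H3K27Ac peak had a fold of 4.98 with vehicle and 3.74 with R5020. Maf1 and the polymerase III antibodies had no peak. Of the 7 genes, SGK1 had the lowest density of PR and of H3K27Ac peaks in the R5020 list.

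HSD11B2 (chr16:67429801-67437553) had the most PR peaks at or above percentile 90. Its R5020 PR peak of highest -log10 q (363) was at chr16:67429266-67429819, across the lower end of the span, with a fold of 44.7 (percentile 98.6). A peak at chr16:67423541-67424213, 5.99 kb below that end, ranked higher by fold, at percentile 98.9, with a -log10 q of 355. Within the gene, a peak of 1464 bp and fold 22.7 lay over the single vehicle PR peak, whose fold was 4.84. Maf1 had 6 R5020 peaks of folds 3.05 to 7.07 in the window and none with vehicle. The highest of them, fold 7.07, lay inside the PR peak of fold 44.7. More PR peaks of folds 32.9, 41.0 and 43.9 lay within ATP6V0D1, one of 5 other coding genes in the window, so the peaks counted here cannot be assigned to HSD11B2 by position.

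H3K27Ac near HSD11B2 covered 25852 bp in 35 peaks with vehicle and 41512 bp in 41 peaks with R5020, a ratio of 1.61, with mean folds of 4.88 and 5.11. The peak over the gene itself had a fold of 11.6 and 2618 bp with vehicle, and 17.0 and 3792 bp with R5020. In the vehicle list the peak of highest -log10 q (61.5) was not this one but one of fold 14.2 over ZDHHC1, at chr16:67415628-67416761, with no PR peak over it. Of the 41 R5020 peaks, 19 overlapped no vehicle peak, and 5 of these 19 overlapped a PR peak. Among its 25 PR peaks, 22 overlapped H3K27Ac with R5020 and 13 with vehicle. HSD11B2 and TSC22D3 were the genes with the largest ratios of covered length.

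**Figure D3:**
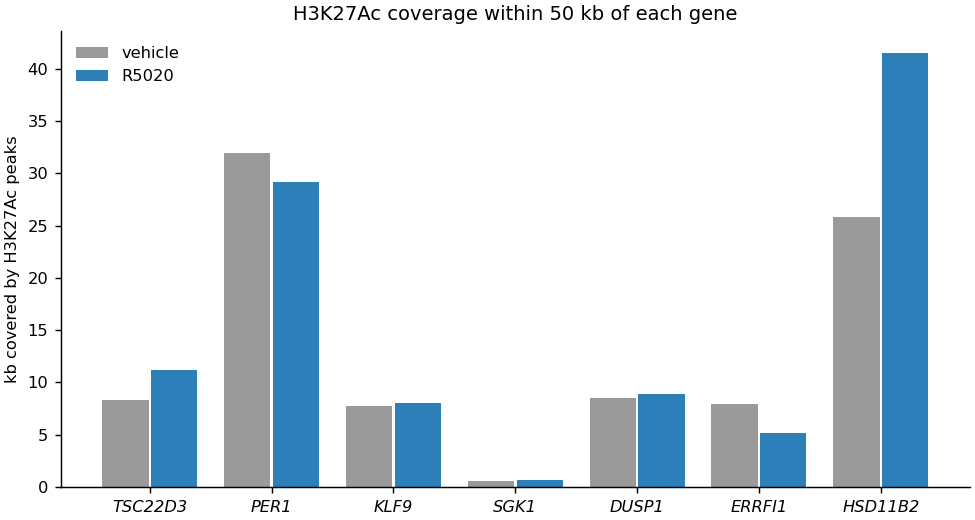
Length covered by H3K27Ac peaks within 50 kb of each gene (y axis, kb) with vehicle (grey) and R5020 (blue), 1 list per bar and so no error bar. The bars differ most at HSD11B2, 25852 bp against 41512 bp, and ERRFI1 and PER1 have shorter bars with R5020.

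Compared across the 7 genes, every gene had an H3K27Ac peak within 50 kb in both lists (87.8% of coding genes with vehicle, 88.1% with R5020). The covered length was larger with R5020 at TSC22D3, KLF9, SGK1, DUSP1 and HSD11B2, 5 of 7 genes against 41.8% of all coding genes. The ratios at KLF9, SGK1 and DUSP1 were 1.03, 1.12 and 1.05, and those at TSC22D3 and HSD11B2 were 1.35 and 1.61. It was smaller at PER1 (0.915) and ERRFI1 (0.649), whose mean folds were 6.34 and 5.12 with vehicle and 6.20 and 5.99 with R5020. The number of peaks was higher with R5020 at 4 of 7 genes against 56.0% of all. Near the 7 genes together there were 105 peaks with vehicle and 130 with R5020. When both lists were reduced to 88870 peaks the counts were 105 and 99, so the direction turned here too. The median log2 ratio of covered length over 17328 coding genes covered in both was -0.031, so the lists as a whole covered similar lengths around genes. H3K27Ac occupied a start of all 6 genes with an entry in the vehicle list (66.2% of all genes) and of 5, without KLF9, in the R5020 list (66.4%).

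Of the 142 R5020 PR peaks, 68 overlapped an R5020 H3K27Ac peak by at least 1 bp. This is 47.9% (95% Wilson interval 39.8 to 56.1, counting error only), beside 28.7% of the whole list. HSD11B2 (22 of its 25 peaks) and PER1 (19 of 26) held most of the 68. The others were TSC22D3 with 10 of 31, DUSP1 8 of 16, KLF9 6 of 11, ERRFI1 2 of 23 and SGK1 1 of 10. The pooled share is therefore not one of the 7 genes alike. Vehicle H3K27Ac lay under 58 of the 142 (40.8%, interval 33.1 to 49.1), beside 26.0% of the whole list. Of these 58, PER1 held 20 and HSD11B2 13. The whole list is not limited to peaks near coding genes. No share was computed for peaks near coding genes, so neither gap can be taken as particular to the 7 genes. Both H3K27Ac lists covered 51 peaks, R5020 alone 17, vehicle alone 7 and neither 67. Of the 17, HSD11B2 held 9. Of the 67, ERRFI1 held 19, TSC22D3 18 and SGK1 9 (9 of its 10 peaks), so the share varied by gene. The share depends on how overlap is set: 6.34% of the 142 shared at least 50% of both peaks with R5020 H3K27Ac. PR peaks over H3K27Ac in both treatments had a median fold percentile of 68.7 and those with H3K27Ac in neither 49.0, beside 64.0 and 45.2 in the whole list.

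**Figure D4:**
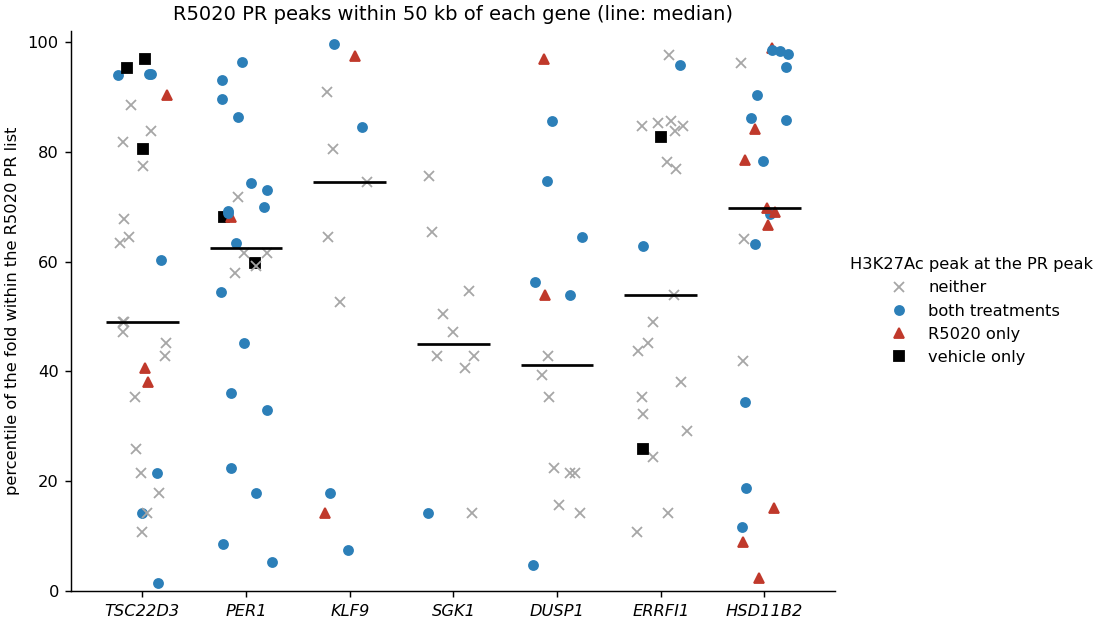
Percentile of the fold of each R5020 PR peak within its list (y axis) by gene, with symbols for the H3K27Ac lists that overlap it and a line at each gene's median. KLF9 and HSD11B2 have the highest medians, 74.6 and 69.8, and 9 of the 10 SGK1 peaks are crosses (no H3K27Ac in either list).

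The 7 vehicle PR peaks all overlapped an R5020 PR peak, 6 different ones, and all lay over H3K27Ac in both treatments. Overlap with the R5020 list was common: 5894 R5020 PR peaks of the whole list overlapped a vehicle PR peak. The share of all vehicle PR peaks that lay over H3K27Ac was not computed, so neither trait can be taken as particular to these genes. Vehicle folds were 2.91 to 6.95. The R5020 peaks over them had folds of 4.49 to 53.1. The vehicle peaks stood at percentiles 10.8 to 87.0 of their list of 6663 peaks and the R5020 peaks at 33.0 to 99.6 of their list of 173129. Ranks in lists of such different length cannot show whether these peaks changed between treatments.

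Maf1 had 2 peaks near the 7 genes with vehicle, both at PER1, and 21 with R5020: 9 at PER1, 6 at HSD11B2, 4 at KLF9 and 2 at TSC22D3. With both Maf1 lists reduced to 3049 peaks the count was 2 in each. A vehicle peak was present at 1 of 7 genes (26.5% of all coding genes) and an R5020 peak at 4 of 7 (70.4%). Peaks in the R5020 list alone were found at 3 of 7 genes (44.1%). At starts, R5020 Maf1 overlapped those of TSC22D3 and PER1, 2 of 6 genes against 32.2% of all.

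Of the 21 R5020 Maf1 peaks near these genes, 17 overlapped an R5020 PR peak, 81.0% beside 82.1% of the whole Maf1 list. The PR peaks that overlapped Maf1 ranked high in their own list. Of the 142 R5020 PR peaks, 13 overlapped R5020 Maf1, which is 9.15% (interval 5.43 to 15.0) beside 10.2% of the whole list. Those 13 had a median PR fold percentile of 93.1, and the other 129 had 56.3. The whole list gave 92.4 and 47.2. All 13 also overlapped R5020 H3K27Ac, but the share for all PR peaks with Maf1 in the whole list was not computed.

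Among the 7 genes, tRNA genes lie in the PER1 window alone. POLR3A, Brf1 and POLR3C peaks lay near 1 of the 7 genes, PER1, in both treatments. Over all coding genes the shares were 3.66% and 3.99% for POLR3A, 2.27% and 6.05% for Brf1, and 5.85% and 5.97% for POLR3C (vehicle first). POLR3GL had a peak near 0 of 7 with vehicle (2.24%) and 1 of 7 with R5020 (1.75%), again PER1. The PER1 window holds 11 tRNA genes, and each of the 4 POLR3A and 4 Brf1 peaks of either treatment lay at them. The peak of highest -log10 q spanned 4 tRNA genes, TRK-TTT3-5 to TRR-TCT2-1, in the POLR3A lists (folds 57.6 and 70.6) and in the Brf1 lists (49.2 and 87.1). The POLR3C peak of highest -log10 q lay at TRK-TTT3-5, with folds of 4.43 and 5.45. The single POLR3GL peak, of fold 3.15, lay within 200 bp of both TRS-GCT4-3 and TRT-AGT1-1. In coordinate order these genes start at -33.2 to -31.5, -26.7, -13.5 to -13.0 and 34.0 to 35.2 kb from the PER1 start.

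**Figure D5:**
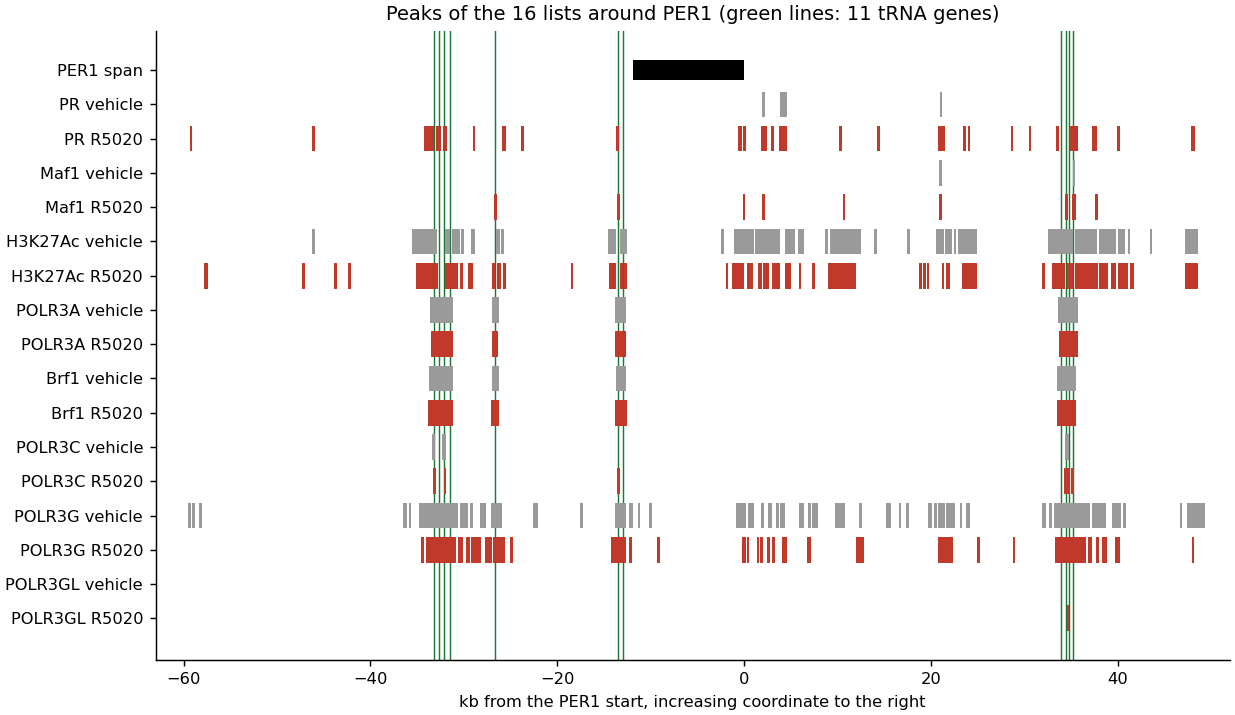
Peaks of the 16 lists (rows, grey for vehicle and red for R5020) against distance in kb from the PER1 start, with 11 tRNA genes as green lines and the gene as a black bar. POLR3A and Brf1 blocks stand on the green lines in both treatments, and PR peaks stand at tRNA genes in the R5020 lane only.

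At the tRNA genes near PER1, PR lay within 200 bp of 0 of 11 with vehicle and of 6 of 11 with R5020, and Maf1 of 1 and 5. The R5020 lists of PR and Maf1 are far longer than the vehicle lists, and the shares over all tRNA genes were not computed. No change at these tRNA genes is read from the counts. TRQ-CTG1-5, a glutamine tRNA gene at chr17:8119752-8119823, had a PR fold of 35.5 with R5020. TRI-AAT5-5, an isoleucine tRNA gene at chr17:8187593-8187666, had a PR fold of 27.5 and Maf1 folds of 2.78 with vehicle and 5.70 with R5020. POLR3A folds at the 4 peaks were 36.7 to 57.6 with vehicle and 46.0 to 70.6 with R5020, and Brf1 folds 28.7 to 49.2 and 61.9 to 87.4. Each pair comes from lists scaled separately, and no direction is drawn from it. Of the 26 R5020 PR peaks near PER1, 5 lay within 200 bp of a tRNA gene, so most were elsewhere.

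POLR3G also had peaks away from tRNA genes, and its lists are the longest of the 4 subunits (58424 peaks with vehicle and 46875 with R5020). It had peaks near PER1, KLF9, DUSP1 and HSD11B2 in both treatments, 4 of 7 genes against 66.9% of all with vehicle and 62.1% with R5020. The counts were 44 and 29 at PER1, 16 and 27 at HSD11B2, 4 and 5 at DUSP1 and 1 and 1 at KLF9. These are 65 and 62 in all, and 55 and 62 with both lists at 46875 peaks, so this direction also depends on list length. The peaks of highest -log10 q had folds of 9.58 and 11.6 at PER1, both over tRNA genes. In the HSD11B2 window they had folds of 3.68, over the divergent transcript ATP6V0D1-DT, and 3.75, within ATP6V0D1. Over HSD11B2 itself the highest POLR3G fold was 3.73 in both treatments. The single KLF9 peaks, of folds 3.46 and 2.80, lay inside the wide upstream PR peak. At PER1, 4 peaks of each treatment lay within 200 bp of a tRNA gene. POLR3G overlapped the starts of PER1 and DUSP1, 2 of 6 genes, in both treatments (43.3% and 35.6% of all). TSC22D3, SGK1 and ERRFI1 had no peak of any polymerase III antibody.

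A list of 24 other steroid-responsive genes was counted in the same way. PR peaks were near 14 of 24 with vehicle and 24 of 24 with R5020, and Maf1 peaks near 7 and 21. H3K27Ac covered more length with R5020 at 17 of 24. FKBP5, a receptor co-chaperone, had 2 PR peaks with vehicle and 53 with R5020, and 25 and 34 H3K27Ac peaks. ZBTB16, a zinc-finger transcription factor, had 2 and 29 PR peaks and 3 and 31 H3K27Ac peaks. Among the 7 genes the widest difference in H3K27Ac peaks was that of PER1, 30 and 40.

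As a measure of likeness, the counts in the 16 lists were compared as log2(peaks + 1). The 5 coding genes nearest to the mean profile of the 7 were SPICE1 (distance 0.975), MYCL (0.990), PASK (1.03), ZNF597 (1.08) and GADD45G (1.09), each with 1 vehicle and 16 to 22 R5020 PR peaks. The median distance of all coding genes was 3.89. The 7 genes themselves lay from 1.96 (DUSP1) to 7.67 (PER1) away, and 1320 coding genes were nearer to the mean than DUSP1 was. The 7 genes thus do not share 1 profile over these lists.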

How the data were processed

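The 16 peak lists are in narrowPeak layout on hg38. The submitters' processing notes name cutadapt, Bowtie2 and MACS2, without versions or roles. How the 3 libraries of a group were combined, and which control was used, is not given in the sources used here. The authors deposited, per peak, a fold (a linear ratio of summit signal to background) and the -log10 of its q-value, which is 1.30 or more in every list. Used were peaks on the chromosomes numbered 1 to 22 and on X and Y. No peaks of a list overlapped.

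Computed here were the peaks within 50 kb of each gene span (RefSeq, GRCh38.p14, spans without exons), overlaps of at least 1 bp, percentiles of the fold within a list, covered lengths and 95% Wilson intervals, with Python 3.11.15, numpy 2.4.6, pandas 2.3.3 and matplotlib 3.10.9. A tRNA gene had a peak when one lay within 200 bp. Overlap counting was tested on simulated data. Groups followed the 54 sample titles (48 ChIP and 6 input libraries). The 7 genes, the 24 other genes and the markers were chosen with earlier results of these data known. One marker list is not reported here. The rule for named peaks was, per gene and list, the peak of highest -log10 q and the PR peak nearest a start. Other peaks named were singled out after their values were seen. Alternatives were windows of 10 and 100 kb, -log10 q or fold of at least 5, lists of equal length and overlap of at least 50%. Motifs at PR summits were not analysed here, because that needs a genome.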

Additional observations from a re-analysis of the deposited data

How the results depend on the processing

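Across 20 values reported, 98 alternative values were computed, and 70 stayed within 1.5 times of the count reported or within the interval of the share or median. The other 28 are given here, and what behind the lists caused them was not tested. A window of 10 kb left 63 R5020 PR peaks, 0 vehicle and 12 R5020 Maf1 peaks, and 39 vehicle and 51 R5020 H3K27Ac peaks, and no gene with vehicle POLR3C or R5020 POLR3GL (0 of 7 in both cases). A window of 100 kb gave 219 R5020 PR and 200 R5020 H3K27Ac peaks. These changes follow from the size of the window. A -log10 q of at least 5 left 1 vehicle and 13 R5020 Maf1 peaks, 57 vehicle and 68 R5020 H3K27Ac peaks, and 0 genes with R5020 POLR3GL. A fold of at least 5 left 4 vehicle PR peaks, 1 vehicle and 8 R5020 Maf1 peaks, 39 vehicle and 49 R5020 H3K27Ac peaks, 0 genes with vehicle POLR3C, 1 gene with POLR3G in either treatment and 0 with R5020 POLR3GL. Lists of equal length left 5 R5020 PR and 2 R5020 Maf1 peaks, and turned the direction for H3K27Ac (105 vehicle and 99 R5020 peaks) and POLR3G (55 and 62), though each of these counts moved by less than 1.5 times. Requiring at least 50% of both peaks gave shares of 6.34% for R5020 H3K27Ac, 7.04% for vehicle H3K27Ac and 1.41% for R5020 Maf1. R5020 PR peaks outnumbered vehicle PR peaks under each alternative except lists of equal length, where the totals were set equal.

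No paired analysis was possible because each list pools 3 libraries and carries no replicate number. No replicate was left out, as the lists do not separate them. The planned motif share at PR summits and its alternatives were not run. Depth limits each count to an unknown degree, since peak lists hold no reads, and neighbouring peaks are not independent.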

Other observations

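The position of H3K27Ac relative to the PR summit was looked at after the peaks were seen. Of the 58 R5020 PR peaks near the 7 genes that overlapped vehicle H3K27Ac, 46 had their summit inside an H3K27Ac peak, which is 79.3% (95% Wilson interval 67.2 to 87.7) beside 81.5% of the whole list. For R5020 H3K27Ac it was 48 of 68, or 70.6% (58.9 to 80.1), beside 74.5%. Among PR peaks at or above percentile 90 near these genes it was 8 of 14 with vehicle and 8 of 16 with R5020, and in the whole list 76.8% and 65.1%. Upstream of PER1, 1 vehicle H3K27Ac peak of 2700 bp (fold 8.38) was matched with R5020 by 3 peaks of 353, 691 and 867 bp with folds of 6.74, 7.85 and 6.49. The PR peak of fold 17.9 lay across the gap between the first 2 of them. The H3K27Ac peak of highest fold in the 7 windows lay over another coding gene, VAMP2, 10.4 kb upstream of PER1 at chr17:8161394-8164429. Its fold was 25.0 with R5020 and 14.4 for its vehicle counterpart.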
